A study of Homo sapiens with 8 samples.

Results

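The MYC and MAX network was examined through the 8 genes MYC, MYCN, MAX, MGA, MNT, MXD1, MXI1 and MLX in a genome-wide CRISPR/Cas9 knockout screen. Its members were all sgRNAs (guides) whose annotated target was one of these symbols, which gave 48 guides, 6 per gene, out of 111627 guides against 18913 genes. A guide was tested where its raw counts averaged 10 or more across all libraries, which 46 of the 48 did. The exceptions were 1 guide against MYC and 1 against MNT.

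The screen was made in MB157R, a line of the triple-negative breast cancer (TNBC) cells MB157 that was made resistant to γ-secretase inhibitor (GSI) by long exposure and that stably expresses Cas9. γ-secretase releases the active intracellular domain of Notch receptors, and the comparison of inhibitor with vehicle addressed which knockouts alter growth when this step is blocked. Cells carrying the human GeCKOv2 library, sublibraries A and B combined, were selected with puromycin and pooled. Frozen aliquots of that pool formed the T0 group (n = 2), and the rest was cultured for 14 days with DMSO (n = 3) or with 10 µM of the GSI LY3039478 (n = 3). Every group therefore shared the resistant background, Cas9, 1 pool of transduced cells and blasticidin and puromycin selection, and no library held sensitive MB157 cells. Guide counts in genomic DNA hold no transcript levels, so neither the expression of the 8 genes nor markers of the cell line were measured.

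MYC and MYCN are transcription factors that bind DNA as a pair with MAX, and MYC drives ribosome production, metabolism and entry into the cell cycle. MAX also pairs with MXD1, MXI1, MNT and MGA, which oppose MYC at many promoters, MXD1 and MXI1 through SIN3 corepressors and MGA within a polycomb complex. MLX is a MAX-like partner that pairs with MXD1, MNT and the glucose-responsive factors MLXIP and MLXIPL. MYC is a known target of Notch signalling in T cell leukemia and in breast cancer cells.

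Sequencing depth ran from 12052218 to 18212884 counts per library, and the median guide had 66 to 112 counts. In GSI replicate 1 a single guide against VPS33B took 38.8% of all counts, and this library had the lowest median. Values below are normalized counts, which are raw counts divided by the size factor of the library. The level of a gene is the median over its tested guides of log2(normalized count + 1), and its fold change is the median over the log2 fold changes of those guides, with the SD over guides as the error. The gene test was robust rank aggregation (RRA), which asks whether the guides of a gene rank low, or high, among all guides by their edgeR p-values. Guides are named by sublibrary and order, so that A1 to A3 and B1 to B3 are the 6 guides of a gene.

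Guides against MYC had the lowest values of the network after 14 days with DMSO. Guide A2 had 129 and 93.0 normalized counts at T0, 4.38, 0 and 0 in DMSO replicates 1 to 3, and 29.6, 11.1 and 1.04 in GSI replicates 1 to 3. Guide B1 had 78.6 and 59.8 at T0, 2.192, 0 and 4.56 with DMSO, and 10.8, 8.74 and 10.4 with GSI. Guide A1 had 262 and 145 at T0, 60.3, 49.7 and 60.4 with DMSO, and 90.2, 19.1 and 60.6 with GSI. For each of these 3 guides, every DMSO and every GSI library lay below both T0 libraries. How many of all guides separate in this way was not counted, here or for the single guides below. Among gene levels, 13.7% of all genes were lower without overlap in each of these 2 comparisons with T0. Their fitted log2 fold changes in DMSO against T0 were -6.16 ± 1.84 (SE) for A2, -4.89 ± 1.86 for B1 and -1.84 ± 0.73 for A1, all with an adjusted p by edgeR's quasi-likelihood test of at least 0.526. With DESeq2 guide statistics the same 3 guides had adjusted p-values of 0.00145, 0.0149 and 0.0244, in a fit that called 6661 of 116849 guides, where edgeR called 0.

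The other guides against MYC did not follow one pattern. Guide A3 had 46.9 and 140.5 normalized counts at T0, 55.9, 53.3 and 11.4 with DMSO, and 110.4, 48.5 and 63.7 with GSI, and its groups overlapped in every comparison. Guide B3 had 24.3 and 22.8 at T0, 25.2, 16.3 and 30.8 with DMSO, and 95.6, 15.1 and 9.40 with GSI. Guide B2, which was too low to be tested, had raw counts of 15 and 7 at T0, 0 in all 3 DMSO libraries, and 8, 6 and 7 with GSI. Set against a floor of 3 counts in each DMSO library, B2 was at least 3.06-fold higher at T0 and at least 2.43-fold higher with GSI. Counts of 0 occurred for 1, 3 and 2 of the 6 MYC guides in DMSO replicates 1 to 3, and for none in the T0 and GSI libraries. Among all guides against genes, 2.85%, 3.85% and 2.55% were at 0 in DMSO replicates 1 to 3. The share was 5.05% and 11.5% in T0 replicates 1 and 2, and 0.745%, 2.3% and 1.3% in GSI replicates 1 to 3.

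**Figure D1:**
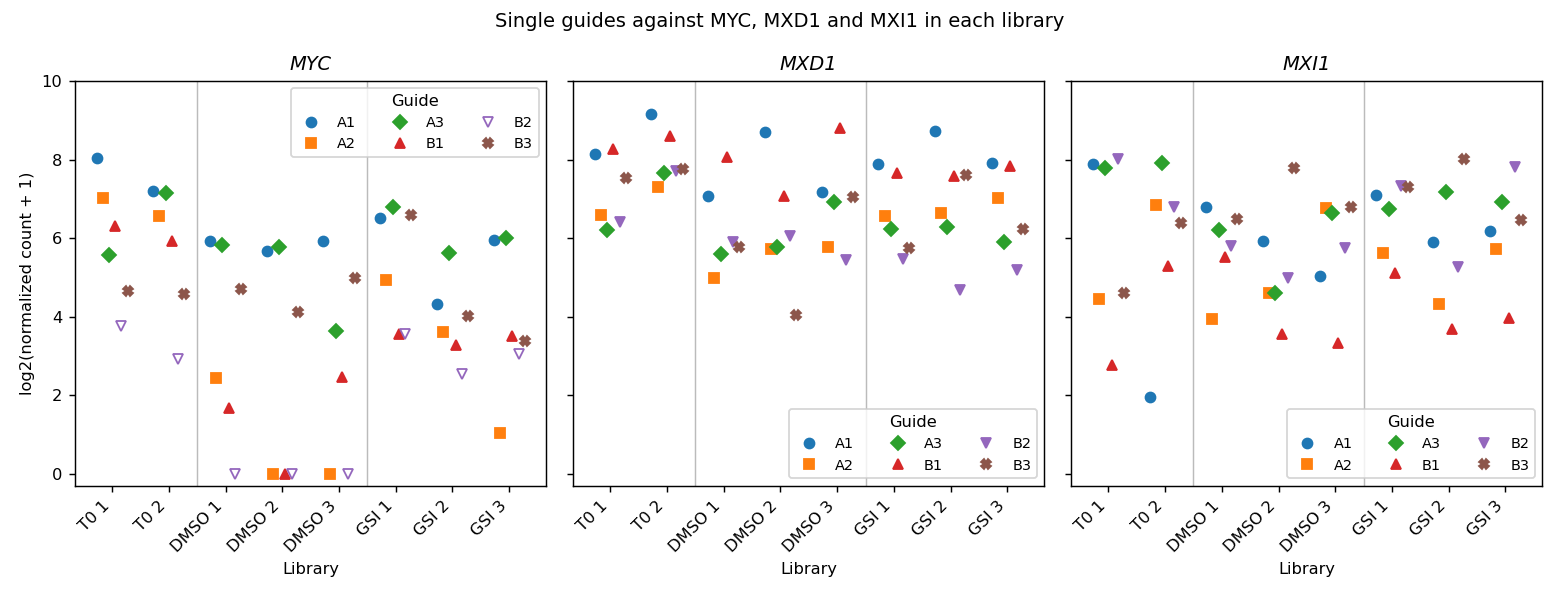
Normalized counts of each guide against MYC, MXD1 and MXI1 in the 8 libraries, as log2(normalized count + 1), with 1 symbol per guide and an open symbol for the MYC guide that was not tested. MYC guides A1, A2, B1 and B2 lie lower in every DMSO library than in both T0 libraries. So do MXD1 guides A2, B2 and B3 and MXI1 guides A3 and B2. MXI1 guide B3 lies higher in every DMSO library than in both T0 libraries. How many of all guides separate in these ways was not counted. MYC guide B2 is at 0 in every DMSO library.

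As a gene, MYC had a level of 6.32 and 6.55 at T0, 4.71, 4.11 and 3.63 with DMSO, and 6.51, 4.01 and 3.52 with GSI. All 3 DMSO levels were below both T0 levels (two-sided permutation test, exact p = 0.1, below which no split of 3 and 2 libraries can go). GSI replicate 1 stood at the T0 level, GSI replicate 2 inside the DMSO range and GSI replicate 3 just below it. The log2 fold change in DMSO against T0 was -1.84 ± 2.60 (SD over 5 guides), with 4 of 5 guides negative, which put MYC at rank 57 of 18570 genes on the low side (exact RRA p = 0.000539, adjusted p = 0.173). MYC was thus not called. When counts were summed over its guides and tested as 1 feature by edgeR, the log2 fold change was -2.005 with an adjusted p of 0.0364, in a fit that called 96 genes lower and 5 higher. Over all settings tried the adjusted p of MYC in DMSO against T0 ranged from 0.0364 to 0.568, the latter without T0 replicate 1. Without a filter on low counts B2 entered and the log2 fold change was -3.37, with an adjusted p of 0.193.

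With GSI, the log2 fold change of MYC against T0 was -1.85 ± 1.62 (SD over 5 guides), again with 4 of 5 guides negative (exact RRA p = 0.00226, adjusted p = 0.411, rank 100 of 18570). Without the count filter, so with B2, it was -1.09. Both comparisons share the T0 libraries and are not independent. The direct comparison of GSI with DMSO gave a log2 fold change of 0.88 ± 1.26, with 4 of 5 guides positive (exact RRA p = 0.0360 on the high side, adjusted p = 0.968). Without GSI replicate 1, the library with the large VPS33B guide, the log2 fold change was 0.48 and the exact RRA p was 0.374. Without DMSO replicate 1, 2 or 3 the exact RRA p was 0.105, 0.136 and 0.167, and without the count filter the log2 fold change was 1.495. The levels of the GSI and DMSO groups overlapped (exact two-sided permutation test, p = 0.9), and no MYC guide had an unadjusted p under 0.05 in this comparison.

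MYCN, the paralog of MYC best known from neural tumors, showed no such pattern. Its level was 6.84 and 6.08 at T0, 5.41, 6.89 and 7.21 with DMSO, and 6.02, 5.99 and 6.67 with GSI, and groups overlapped in all 3 comparisons. The log2 fold change was 0.095 ± 0.89 in DMSO against T0, -0.24 ± 0.81 in GSI against T0 and -0.42 ± 0.41 in GSI against DMSO (SD over 6 guides), with adjusted p-values by RRA of at least 0.988. Of its 6 guides, 5 were negative in GSI against DMSO, and the log2 fold change there ranged from -0.68 without GSI replicate 1 to -0.074 without DMSO replicate 3. Guide A1 had 202, 353 and 216 normalized counts with DMSO and 179, 129 and 144 with GSI, so all GSI libraries were lower (edgeR adjusted p = 1).

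MAX, the shared partner, had a level of 5.56 and 5.82 at T0, 6.39, 4.95 and 5.65 with DMSO, and 5.97, 5.41 and 5.30 with GSI. Groups overlapped in all 3 comparisons, and the log2 fold changes of 0.18 ± 1.00 in DMSO against T0 and -0.30 ± 0.88 in GSI against T0 had adjusted p-values by RRA of 1. The log2 fold change in GSI against DMSO was -0.12 ± 1.30, with 4 of 6 guides negative (exact RRA p = 0.0309 on the low side, adjusted p = 0.972). The guide of MAX with the lowest p was B1, which had 31.8 and 41.8 normalized counts at T0, 70.1, 17.2 and 70.6 with DMSO, and 10.8, 13.5 and 0 with GSI. All GSI libraries of B1 were below all DMSO libraries, and its log2 fold change was -2.67 ± 1.25 (SE, edgeR adjusted p = 1). Guide B3 had 161, 86.7 and 243 with DMSO and 88.9, 102 and 54.3 with GSI, with overlapping groups and a log2 fold change of -0.998 ± 0.53. Guides A1 and B2 lay on the other side, with log2 fold changes of 0.60 and 0.91. Leaving out DMSO replicate 1, GSI replicate 2 or GSI replicate 3 turned the log2 fold change of MAX positive, to 0.22, 0.053 and 0.029.

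**Figure D2:**
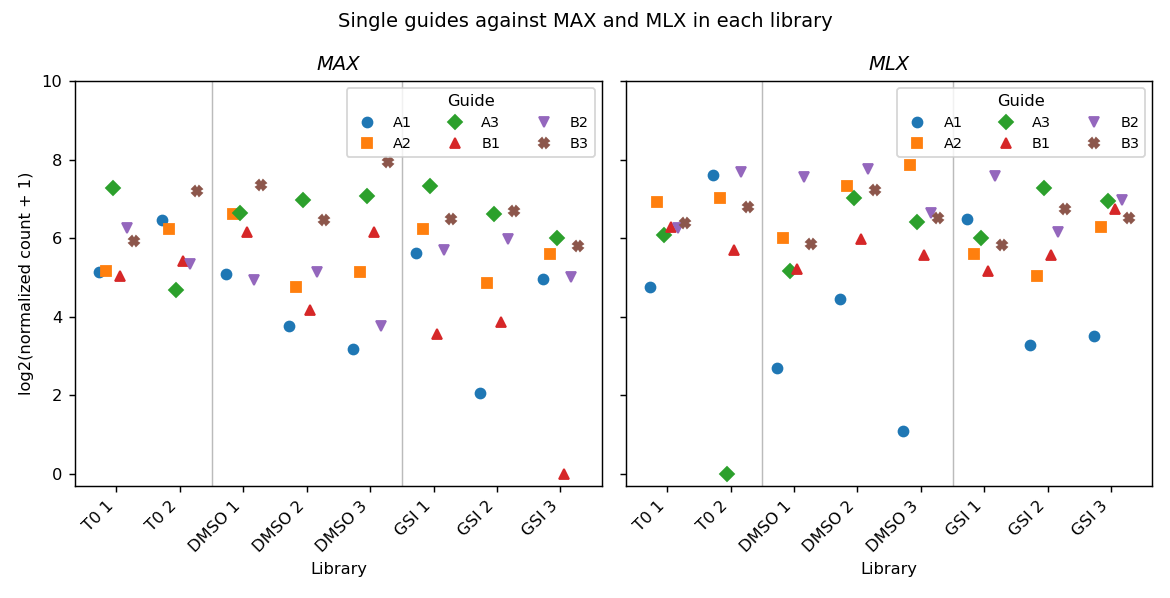
Normalized counts of each guide against MAX and MLX in the 8 libraries, as log2(normalized count + 1), with 1 symbol per guide. MAX guide B1 is lowest with GSI, MLX guide A1 is lowest with DMSO, and MLX guide A3 is at 0 in T0 replicate 2.

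Among the partners of MAX that oppose MYC, MXD1 was the one whose 6 guides were all below 0 in both comparisons with T0. MXD1 rises as many cell types differentiate and leave the cycle. Its level was 7.06 and 7.74 at T0, 5.84, 5.91 and 6.99 with DMSO, and 6.39, 7.11 and 6.63 with GSI. All DMSO levels were below both T0 levels, although DMSO replicate 3 came close to T0 replicate 1 (exact two-sided permutation test, p = 0.2). The log2 fold change in DMSO against T0 was -1.15 ± 0.49 (SD over 6 guides), and 6 of 6 guides were negative, from -1.58 to -0.29 (exact RRA p = 0.00540, adjusted p = 0.403, rank 249 of 18570). The lowest adjusted p by RRA over all settings tried was 0.155, without DMSO replicate 3. When 1 library was left out, the log2 fold change ranged from -1.57 (without T0 replicate 1) to -0.45 (without T0 replicate 2). With GSI against T0 it was -0.82 ± 0.64, also with 6 of 6 guides negative (exact RRA p = 0.00665, adjusted p = 0.559), and -0.32 without T0 replicate 2. T0 replicate 2 had more counts than T0 replicate 1 for each of the 6 guides, with 567, 157, 201, 385, 210 and 217 against 283, 95.4, 72.8, 306, 84.5 and 183 normalized counts for A1 to A3 and B1 to B3.

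Single MXD1 guides differed in what they did with GSI. Guide B2 had 84.5 and 210 normalized counts at T0, 59.2, 65.9 and 42.1 with DMSO, and 43.1, 24.6 and 35.5 with GSI, so that both cultures were below T0 (log2 fold change -2.10 ± 0.82 (SE) in GSI against T0, edgeR adjusted p = 0.532). Guide A2 had 95.4 and 157 at T0, 30.7, 51.5 and 53.5 with DMSO, and 92.9, 98.5 and 130 with GSI, so that all GSI libraries were above all DMSO libraries (log2 fold change 1.24 ± 0.63, edgeR adjusted p = 1). The gene's log2 fold change in GSI against DMSO was 0.15 ± 0.73, with 3 of 6 guides negative.

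MXI1, the closest relative of MXD1 among the members, had a level of 6.20 and 6.58 at T0, 6.01, 4.80 and 6.18 with DMSO, and 6.92, 5.58 and 6.31 with GSI. All DMSO levels were below both T0 levels, DMSO replicate 3 only barely (exact two-sided permutation test, p = 0.4). The log2 fold change in DMSO against T0 was -0.66 ± 1.25, with 5 of 6 guides negative (exact RRA p = 0.0383, adjusted p = 0.753). It ranged from -1.26 without DMSO replicate 1 to -0.28 without T0 replicate 2, and was -1.34 over guides with a mean count of at least 50. Guide A3 had 221 and 242 normalized counts at T0, 73.4, 23.5 and 98.0 with DMSO, and 106, 145 and 120 with GSI. Its 3 groups were fully separated, with DMSO lowest and T0 highest. Guide B2 had 256 and 109 at T0, 54.8, 30.7 and 52.4 with DMSO, and 159, 37.4 and 223 with GSI, and its log2 fold change in GSI against DMSO was 1.603 ± 0.66 (SE, edgeR adjusted p = 1). Guide B3 went the other way, from 23.4 and 82.6 at T0 to 88.8, 219 and 109 with DMSO and 158, 256 and 86.7 with GSI. The gene's log2 fold change was -0.42 ± 0.93 in GSI against T0 and 0.33 ± 0.70 in GSI against DMSO. The latter ranged from 0.13 without GSI replicate 1 to 0.97 without DMSO replicate 1, and was 0.67 over guides with a mean count of at least 50.

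MNT, a repressor found with MAX in proliferating and resting cells alike, had levels of 7.22 and 7.64 at T0, 6.24, 6.38 and 7.28 with DMSO, and 7.40, 7.43 and 6.97 with GSI. Its log2 fold change was -0.49 ± 0.55 in DMSO against T0, -0.14 ± 0.17 in GSI against T0 and 0.38 ± 0.44 in GSI against DMSO (SD over 5 guides). Leaving out 1 library gave -1.02 (without DMSO replicate 3) to -0.072 (without DMSO replicate 2) in DMSO against T0, -0.52 (without T0 replicate 2) to -0.12 (without GSI replicate 3) in GSI against T0, and 0.0058 (without DMSO replicate 2) to 0.96 (without DMSO replicate 3) in GSI against DMSO. All 5 tested guides were negative in GSI against T0, but the lowest was -0.46 and the groups of levels overlapped. Guide B1 against MNT, the other guide that was not tested, had raw counts of 0 and 13 at T0, 0, 11 and 0 with DMSO, and 2, 23 and 19 with GSI.

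MGA, the largest protein of the network, had levels of 6.10 and 7.08 at T0, 7.18, 7.24 and 6.53 with DMSO, and 7.16, 7.30 and 7.41 with GSI. All GSI levels were above both T0 levels (exact two-sided permutation test, p = 0.1), while the log2 fold change of its guides was 0.023 ± 0.77 with 3 of 6 negative, and turned to -0.11, -0.17 and -0.12 when libraries were scaled by their totals, by non-targeting controls or by the constants of the deposited table. In DMSO against T0 it was -0.041 ± 1.01 and in GSI against DMSO 0.12 ± 0.35. The T0 libraries disagreed for single guides. Guide A3 had 0 and 99.6 normalized counts in T0 replicates 1 and 2, and guide B1 had 72.8 and 568.

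MLX had levels of 6.28 and 6.91 at T0, 5.54, 7.12 and 6.46 with DMSO, and 5.91, 5.87 and 6.63 with GSI, with overlap in all 3 comparisons. Its log2 fold change was 0.14 ± 1.67 in DMSO against T0, -0.17 ± 1.18 in GSI against T0 and 0.071 ± 1.15 in GSI against DMSO. Guide A2 had 63.6, 159 and 232 normalized counts with DMSO and 47.1, 31.8 and 76.2 with GSI, with a log2 fold change of -1.55 ± 0.61 (SE, edgeR adjusted p = 1). Guide A1 went the opposite way with 5.48, 20.8 and 1.14 with DMSO and 88.9, 8.74 and 10.4 with GSI, after 25.9 and 193 at T0. Its DMSO libraries were all below T0 (log2 fold change -3.55 ± 1.53, edgeR adjusted p = 0.629). The guides of MLX thus spread widely around a median near 0.

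**Figure D3:**
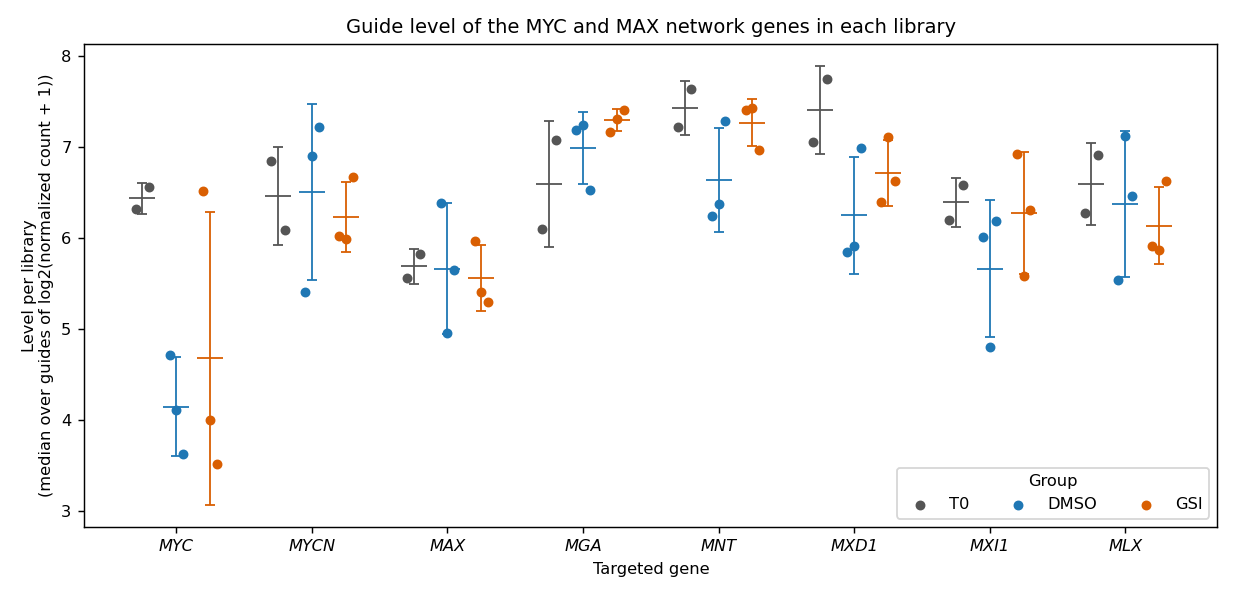
Level of each of the 8 genes per library (y axis, median over tested guides of log2(normalized count + 1)), with points for libraries, horizontal marks for group means and bars for the SD over libraries (n = 2 for T0, n = 3 for DMSO and GSI). MYC has the lowest level of the 8 genes in each DMSO library, at 3.63 to 4.71 against 6.32 and 6.55 at T0. With GSI, MYC lies at 4.01 and 3.52 in replicates 2 and 3, and apart from them at 6.51 in replicate 1.

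Over the whole network, 0 of 8 genes were called on either side of any comparison at an adjusted p under 0.05 by RRA, and 0 of 46 guides by edgeR. With DESeq2 guide statistics in the RRA no member was called either. Over all 18570 genes tested, 6 (0.0323%) were called on the low side of DMSO against T0 and 0 (0%) on the high side or on either side of the other comparisons. At an unadjusted p under 0.05, the low side of DMSO against T0 held MYC, MXD1 and MXI1, or 3 of 8 members, with a background of 6.12% of all genes, and the high side held none, with a background of 5.3%. Without DMSO replicate 1 the low side held 1 member, and without any other library 2. The low side of GSI against T0 held MYC and MXD1, with a background of 5.69%, and the high side none, with a background of 5.39%. Without T0 replicate 2, GSI replicate 1 or GSI replicate 3 it held 1 member. For GSI against DMSO the low side held MAX and the high side held MYC, with backgrounds of 5.06% and 4.99%. MAX stayed there only without DMSO replicate 2, and MYC only without GSI replicate 2 or 3, among the 6 fits that each left out 1 library. Other members took their places in some of these fits, MYCN and MLX on the low side without DMSO replicate 1 and MNT, MXD1 and MXI1 on the high side without DMSO replicate 3.

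Single guides were counted the same way. With DMSO against T0, 6 of 46 guides had an unadjusted edgeR p under 0.05 and were lower (3 against MYC, 2 against MXI1 and 1 against MLX), with 3.55% of all guides, and 0 were higher, with 4.19%. With GSI against T0, 4 were lower (3 against MYC and 1 against MXD1), with 3.99% of all guides, and 0 were higher, with 4.72%. With GSI against DMSO, 2 were lower (1 against MAX and 1 against MLX) and 1 was higher (against MXI1), with 1.46% and 1.55% of all guides. Levels that did not overlap between groups were found lower for MYC, MXD1 and MXI1 in DMSO against T0, where 13.7% of all genes were lower and 14.8% higher without overlap. MGA alone was higher without overlap in GSI against T0, where 16% of all genes were higher and 13.7% lower. In GSI against DMSO no member was separated, and 4.45% of all genes were lower and 4.89% higher.

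Guides with known behaviour gave the scale for these values. In DMSO against T0 the median log2 fold change was -0.44 over the 46 network guides, -0.95 over 463 guides against cytosolic ribosomal proteins, which growing cells need, 0.092 over 2188 guides against olfactory receptors, which these cells are not known to use, and 0.25 over 999 non-targeting controls. MYC guides A2 and B1 lay below the lower quartile of the ribosomal guides (-2.34). Guides A1 and A3 (-1.22) lay between that quartile and the ribosomal median, and B3 (0.032) lay above that median. In GSI against T0 the medians were -0.36, -0.61, 0.097 and 0.18 in the same order. Negative values were found for 36 of 46 network guides (78.3%) in GSI against T0, beside 67.6% of the ribosomal guides and 51% of all guides against genes. In DMSO against T0 they were found for 29 of 46 (63%), beside 70.6% and 50.1%. In GSI against DMSO they were 0.098, 0.13, -0.013 and -0.079.

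**Figure D4:**
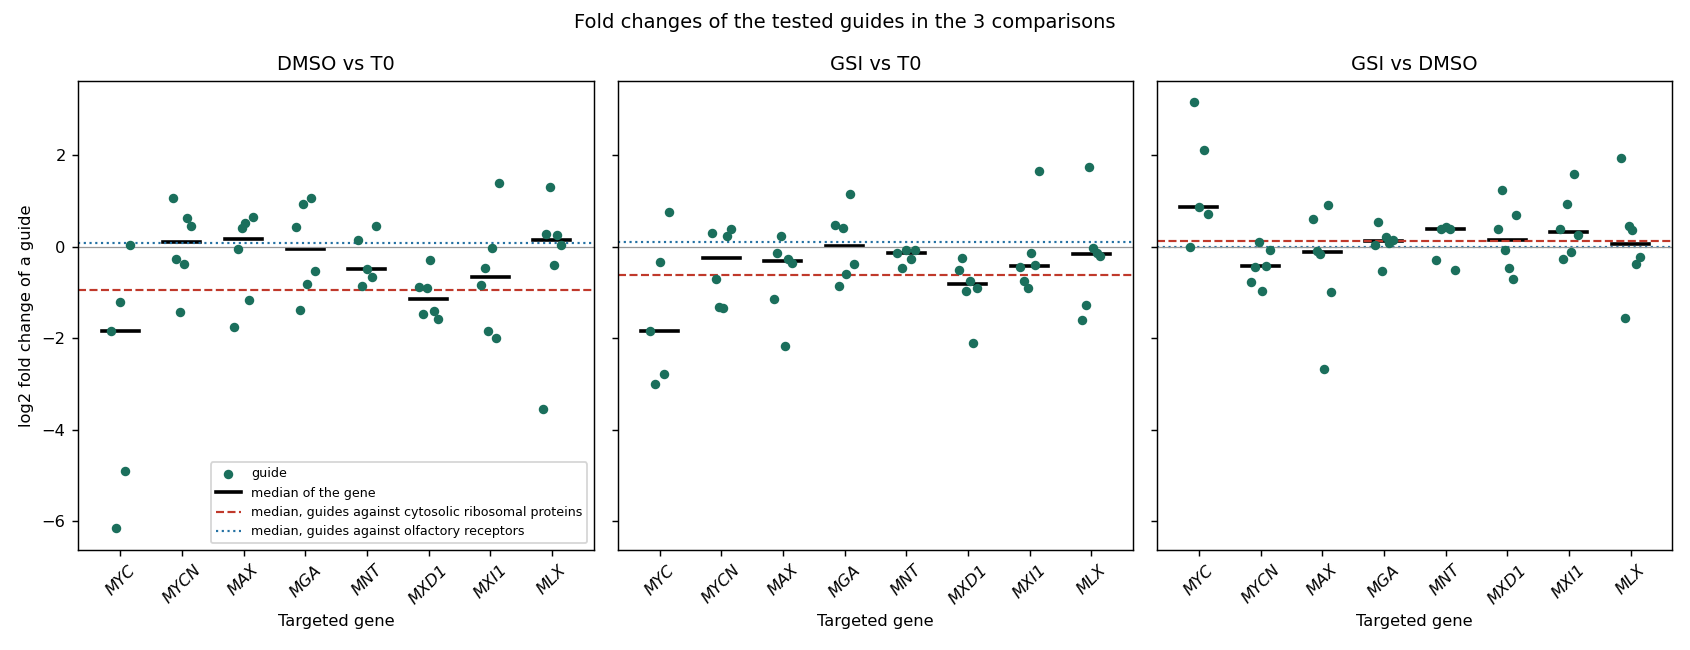
Log2 fold change of each tested guide (points) for the 8 genes in the 3 comparisons, with the gene median as a black bar, the median of guides against cytosolic ribosomal proteins as a dashed line and that of guides against olfactory receptors as a dotted line. MYC and MXD1 medians lie at or below the ribosomal line in both comparisons with T0, and no gene median lies beyond 0.88 in GSI against DMSO.

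Because Cas9 cuts DNA, the genes next to each member were set beside it, with positions from GENCODE v44 on GRCh38. The MYC gene (chr8:127735434-127742951, plus strand) had 1 other tested gene starting within 1 Mb, POU5F1B, with a log2 fold change of -0.31 in DMSO against T0 and -0.62 in GSI against T0. MXD1 (chr2:69897688-69942945, plus strand) had 21 such neighbors with a median of -0.010 in DMSO against T0, of which 3 were lower than MXD1. MXI1 (chr10:110207605-110287365, plus strand) had 10 neighbors with a median of -0.40 in DMSO against T0, of which 2 were lower. MAX (chr14:65006174-65102695, minus strand) had 14 neighbors with a median of 0.074 in GSI against DMSO, of which 1 was lower. MYCN had 3 neighbors with a median of -0.39 in GSI against DMSO, of which 1 was lower. At an unadjusted RRA p under 0.05, 2 of these 3 stood on the low side there, where 5.06% of all genes did. MGA, MNT and MLX had 41, 33 and 63 neighbors, with medians of -0.023, -0.0011 and 0.014 in GSI against DMSO. In DMSO against T0 the medians were 0.80, -0.15, -0.12 and -0.094 for MYCN, MGA, MNT and MLX. The guides were not aligned to a genome here, so the exon each one cuts is not given.

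Other genes around the network were read from 6 lists, in which no gene was called in any comparison at an adjusted p under 0.05 by RRA. Relatives of MYC, MXD and MLX (5 genes, 5 tested) had a median log2 fold change of 0.38 in DMSO against T0, with 5 of 5 positive, where all genes had a median of 0.0048. At an unadjusted p under 0.05 none of them stood on either side of any comparison. MLXIPL, the carbohydrate-responsive partner of MLX, had the lowest p of that list on the low side with a log2 fold change of 0.027 ± 1.48. MXD3, a repressor like MXD1, had the lowest p on both sides of GSI against DMSO with -0.21 ± 1.07. The network itself had a median of -0.27 in DMSO against T0, with 5 of 8 genes negative.

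Cofactors that MYC recruits to chromatin (11 genes) had a median log2 fold change of -0.50 in DMSO against T0, with 7 negative, -0.072 in GSI against T0 and 0.16 in GSI against DMSO. RUVBL1, an ATPase of the TIP60 and INO80 complexes, had -1.18 ± 1.28 with 5 of 6 guides negative (exact RRA p = 0.0486, adjusted p = 0.809). Its partner RUVBL2 had -0.88 ± 1.11 in GSI against DMSO (exact RRA p = 0.130) and TRRAP, the scaffold that binds MYC, had 0.45 ± 0.84 (exact RRA p = 0.0590). BPTF went the other way from RUVBL1 in DMSO against T0, with 0.94 ± 1.93 (exact RRA p = 0.00480 on the high side, adjusted p = 0.794). So 1 cofactor stood on each side there at an unadjusted p under 0.05, with backgrounds of 6.12% (low) and 5.3% (high) of all genes. Ligases, kinases and other factors that set MYC turnover (10 genes) had medians of -0.13, -0.26 and -0.089 in DMSO against T0, GSI against T0 and GSI against DMSO. HUWE1, a ubiquitin ligase of MYC, had 0.37 ± 3.05 in DMSO against T0 and 0.61 ± 1.65 in GSI against DMSO (exact RRA p = 0.0129 on the high side, adjusted p = 0.930). AURKA, a kinase that stabilizes MYCN, had -0.36 ± 0.77 in GSI against DMSO. Of these turnover genes, 0 stood on the low side and 2 on the high side of DMSO against T0 at an unadjusted RRA p under 0.05.

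The SIN3 and NCOR corepressors (10 genes) held the gene with the lowest p on the low side of DMSO against T0 in these lists. SIN3A, the scaffold through which MXD1 and MXI1 repress, had a log2 fold change of -1.79 ± 2.35 with 4 of 5 guides negative (exact RRA p = 0.00144, adjusted p = 0.270). SIN3A had in GSI against DMSO 1.32 ± 1.55, with 4 of 5 guides positive (exact RRA p = 0.0245, adjusted p = 0.968), and HDAC1, a deacetylase of the same complex, had -0.55 ± 0.47 (exact RRA p = 0.0351). In DMSO against T0, 1 gene of the list stood on the low side and 2 on the high side at an unadjusted RRA p under 0.05. The backgrounds were 6.12% and 5.3% of all genes. The list's medians were -0.34 in DMSO against T0, with 7 of 10 genes negative, -0.35 in GSI against T0 and 0.072 in GSI against DMSO. The polycomb complex around MGA (9 genes) had medians of -0.056, -0.14 and -0.043 in the same order. E2F6, one of its DNA-binding subunits, had -0.056 ± 1.202 in DMSO against T0, and CBX3 and YAF2 had -0.63 ± 0.63 and -0.72 ± 1.02 in GSI against DMSO.

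Classic transcriptional targets of MYC (17 genes) had a median log2 fold change of -0.46 in DMSO against T0, with 12 of 17 negative, -0.36 in GSI against T0, also with 12 negative, and 0.068 in GSI against DMSO. NOP56, a protein of box C/D snoRNPs, had -0.36 ± 4.39 in DMSO against T0 (exact RRA p = 0.0261, adjusted p = 0.668). PPAT, the first enzyme of purine synthesis, had -0.76 ± 0.50 in GSI against DMSO with 6 of 6 guides negative (exact RRA p = 0.00671, adjusted p = 0.959), and BOP1, a ribosome biogenesis factor, had 0.37 ± 1.61. At an unadjusted p under 0.05, 5 of the 17 targets stood on the low side of GSI against T0, where 5.69% of all genes did, and 1 on that of DMSO against T0, where 6.12% of all genes did.

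**Figure D5:**
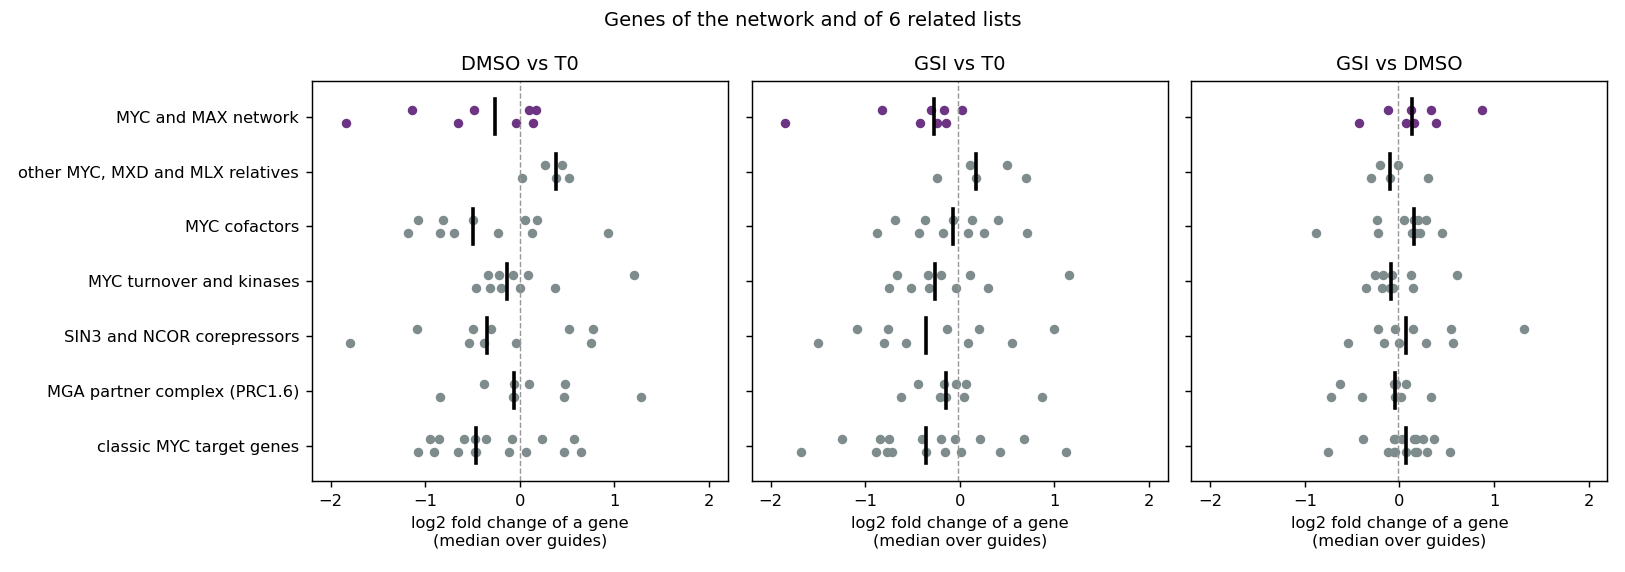
Log2 fold change of each gene (points, median over its guides) of the network and of the 6 lists in the 3 comparisons, with black marks for list medians and a dashed line for the median of all 18570 genes. List medians lie between -0.50 and 0.38 in every panel, and the lowest network gene in both comparisons with T0 is MYC.

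The genes whose level over the 8 libraries was most like that of MYC were RHOU, OTUB1 and NDUFS8, with Pearson's r of 0.967, 0.953 and 0.952 among 18569 genes searched. For MAX they were SLC12A8, SERP1 and DUSP18, with r of 0.973, 0.963 and 0.942. These correlations rest on 8 libraries that share 1 pool of cells and differ in depth, and they are the highest of many.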

How the data were processed

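Guide abundance was measured by sequencing of PCR products from genomic DNA of MB157R cells in 8 libraries (T0, n = 2; DMSO, n = 3; GSI, n = 3). The submitters' processing notes name bcl2fastq 2.19 (read trimming), FastQC 0.11.5 (quality) and MAGeCK 0.5.9.2 (guide counting). The count table deposited by the authors holds raw read counts per guide, on which all tests were run. The deposited normalized table holds a signal equal to the raw count times a constant per library, and served as an alternative only.

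All computation used R 4.3.3. Of 119461 guides, 116852 averaged 10 or more raw counts and were kept. Guides were tested with edgeR 4.0.16 (glmQLFit, glmQLFTest; limma 3.58.1) with median-ratio size factors, in fits of the compared groups only. This test returns no SE. The SE given for a guide is its absolute unshrunken log2 fold change divided by the square root of the test's F statistic. The log2 fold change beside it is edgeR's own shrunken estimate. Genes with at least 4 tested guides (18570) were tested by RRA with an alpha of 0.25 and an exact p under uniform ranks, written anew in place of MAGeCK's test. P-values were adjusted over all guides or genes by the Benjamini-Hochberg method and called under 0.05. For levels, permutation tests were exact and two-sided. The scripts were tested on simulated data.

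The members and lists were chosen with earlier results of these data known. Named were all members, from each list the gene with the lowest RRA p on the low side of DMSO against T0 and on each side of GSI against DMSO, and the 3 genes most like MYC and MAX. POU5F1B is named as the sole neighbor of MYC. BPTF is named as the only cofactor at an unadjusted RRA p under 0.05 on the high side of DMSO against T0. Other genes on that side are counted but not named for it. CIP2A was read under its older symbol, and 2 guides listed under MYCL1 were not joined to MYCL.

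The p-values of the guide tests, the summed counts and the permutation tests measure the spread between cultures or aliquots of 1 pool. The RRA p-values measure how the guides of a gene rank among all guides, with guides as the units and taken as independent. No molecular identifiers are named in the sources used here, so amplified reads are not independent molecules and the floor of 3 counts covers counting error only. Alternatives were other size factors (TMM, library totals, non-targeting controls and the constants of the deposited table), other count filters, DESeq2 1.42.0, a joint fit, the replicate number as a block, an RRA alpha of 0.1, summed counts, a pseudocount of 5 or the mean over guides for levels, and leaving out each library. Guide sequences were not used here.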

Additional observations from a re-analysis of the deposited data

How the results depend on the processing

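No member was called by RRA under any alternative, and the pathway lists gave no call. The exception was MYC in DMSO against T0 with summed counts (log2 fold change -2.005, adjusted p = 0.0364, so 1 member called). With DESeq2 guide statistics 3 of the network's guides passed in DMSO against T0 (all against MYC), where 6661 of all 116849 guides did. In GSI against T0, 2 passed (MYC B1 and MXD1 B2), where 7913 of all 116851 guides did. With 2 T0 libraries and guide counts that differ widely between them, small fold changes had no stable sign, and the cause of each change below was not tested.

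With library totals, which lowered the median of all genes to -0.22 in GSI against DMSO, MGA, MLX and MXD1 turned to -0.068, -0.042 and -0.041 there. MGA turned to 0.024 in DMSO against T0 and -0.11 in GSI against T0. With control-based factors, which set the median of all genes to -0.25 in DMSO against T0, MYCN, MAX and MLX turned to -0.18, -0.083 and -0.11, and MGA to -0.17 in GSI against T0. The constants of the deposited table, chosen after seeing the data, turned MGA to -0.12 in GSI against T0. With a mean count of at least 50, MYC and MAX had too few guides to be tested, MLX was -0.23 in GSI against DMSO and MYCN 0.23 in GSI against T0. Summed counts gave MLX -0.23 in GSI against DMSO and -0.029 in DMSO against T0, and MGA -0.015 in GSI against T0. Levels taken as the mean over guides gave differences of -0.086 for MYCN in DMSO against T0, 0.073 and 0.022 for MLX in GSI against DMSO and against T0, and 0.26 for MXI1 in GSI against T0. The deposited normalized table gave -0.040 for MYCN in DMSO against T0.

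Members at an unadjusted p under 0.05 in GSI against DMSO numbered 1 on each side. On the low side there were 0 with summed counts, 0 with a mean count of at least 50, where MAX was not tested, and 2 with the joint fit or an alpha of 0.1, and on the high side 0 with library totals or an alpha of 0.1 and 2 with the joint fit. In GSI against T0 the low side had 1 in place of 2 with an alpha of 0.1, and also with a mean count of at least 50, where MYC was not tested.

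Same-numbered DMSO and GSI libraries correlated at 0.28, 0.0644 and 0.121 (deviations from group means), and other pairs at -0.161 to 0.0455. Each library thus correlated best with its own number. Whether replicate numbers mark pairs is not stated in the sample labels, and the main fits used no pairing. With the replicate number as a block, 0 members stood on either side of GSI against DMSO at an unadjusted p under 0.05 and 2 in place of 3 on the low side of DMSO against T0, where MXI1 had an exact RRA p of 0.0795. The T0 aliquots were taken before the cells were divided into cultures, so a number shared with T0 marks no paired culture. DMSO replicate 3 also has no T0 library of its number. With the block, in DMSO against T0 MYCN was -0.94, MAX -0.035, MGA 0.25 and MLX -0.18.

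Leaving out 1 library at a time gave ranges in GSI against DMSO of -0.53 to 0.22 for MAX, -0.26 to 0.39 for MLX, -0.12 to 0.30 for MXD1 and -0.092 to 0.17 for MGA, with 0 to 2 members on the low side (2 without DMSO replicate 1, 0 without DMSO replicate 3 or GSI replicate 1) and 0 to 3 on the high side (0 without DMSO replicate 1 or GSI replicate 1, 3 without DMSO replicate 3). In DMSO against T0 they were -0.30 to 0.32 for MAX, -0.18 to 0.28 for MLX, -0.62 to 0.81 for MYCN and -0.39 to 0.72 for MGA, with 1 to 2 members on the low side. In GSI against T0 they were -0.53 to 0.56 for MYCN, -0.49 to 0.84 for MGA, -0.53 to 0.24 for MLX and -0.76 to 0.045 for MXI1, with 1 to 2 members on the low side. Guides passing the adjusted threshold numbered 0 to 1 in DMSO against T0 and 0 to 4 in GSI against T0, all of the calls without T0 replicate 1 or 2, in fits that called up to 21131 of all guides. A lone T0 library was assumed to vary like the other group. TMM factors, the absence of a count filter and a pseudocount of 5 changed no direction and no call.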
